A study of Homo sapiens with 6 samples.

Results

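The 10 genes described here encode the enzymes of de novo purine synthesis and of the steps that turn its product, inosine monophosphate (IMP), into guanine and adenine nucleotides. They were chosen by name, as PPAT, GART, PFAS, PAICS, ADSL, ATIC, IMPDH1, IMPDH2, GMPS and ADSS, out of 20136 protein-coding symbols in the annotation. ADSS is the older symbol of ADSS2. A gene was counted for a protein when a row of its deposited promoter, enhancer or super-enhancer list named it, and as not listed when no row did.

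The lists come from ChIP-Seq in CHP-134 cells, a human neuroblastoma line that the series describes as overexpressing N-Myc. The labels name no treatment other than cross-linking. The 6 samples formed 2 groups of 3 replicates. Chromatin for the anti-N-Myc group was fixed with formaldehyde alone, and chromatin for the anti-JMJD6 group was fixed with DSG, a protein cross-linker, before formaldehyde. The transcription factor N-Myc is the product of MYCN, and JMJD6 belongs to the jumonji domain proteins. The study asked where both proteins bind together on chromatin. The labels do not say whether the replicates were separate cultures, and only 1 cell line was used.

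The pathway builds the purine ring step by step on a ribose phosphate and feeds ATP, GTP, RNA and DNA. Its enzymes work in the cytosol, and proliferating cells depend on it more than resting cells, which can recover purines by salvage. Myc proteins bind the E-box, a palindrome written CACGTG, together with their partner MAX, and nucleotide synthesis is among the processes they are best known to drive.

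The deposited values are positions of peaks found in all 3 replicates (common peaks) and of the promoters (1 kb on each side of a RefSeq start site), typical enhancers and super-enhancers that such peaks touch. Neither heights nor counts of reads accompany these positions, which leaves the depth of each peak unknown and allows no spread between replicates to be given. The N-Myc list held 10172 common peaks and the JMJD6 list 561. The proteins were mapped under different cross-linking, and a difference in protein and one in protocol cannot be told apart. As a check of the cell type, 9 of 10 markers of adrenergic neuroblastoma (all but DBH) were named by an N-Myc-bound enhancer or super-enhancer, against 1 of 8 mesenchymal markers (FN1), where typical enhancers alone named 31.8% of all protein-coding symbols. Listed N-Myc promoters did not separate the marker lists, with 1 of 10 (MYCN) and 1 of 8 (FOSL2). Coordinates are 1-based on GRCh37.

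N-Myc was bound at the promoters of 7 of the 10 genes: PPAT, GART, PFAS, PAICS, ATIC, IMPDH1 and ADSS. Of all protein-coding symbols, 17.5% had a listed N-Myc promoter (3525 of 20136). JMJD6 was listed at none of the 10 promoters, where the share over all protein-coding symbols was 0.626%, so a count of 0 is close to that background. PPAT and PAICS face away from each other and share their peaks, so the 7 genes correspond to 6 separate promoter regions. ADSL, IMPDH2 and GMPS were named in no list of either protein.

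**Figure D1:**
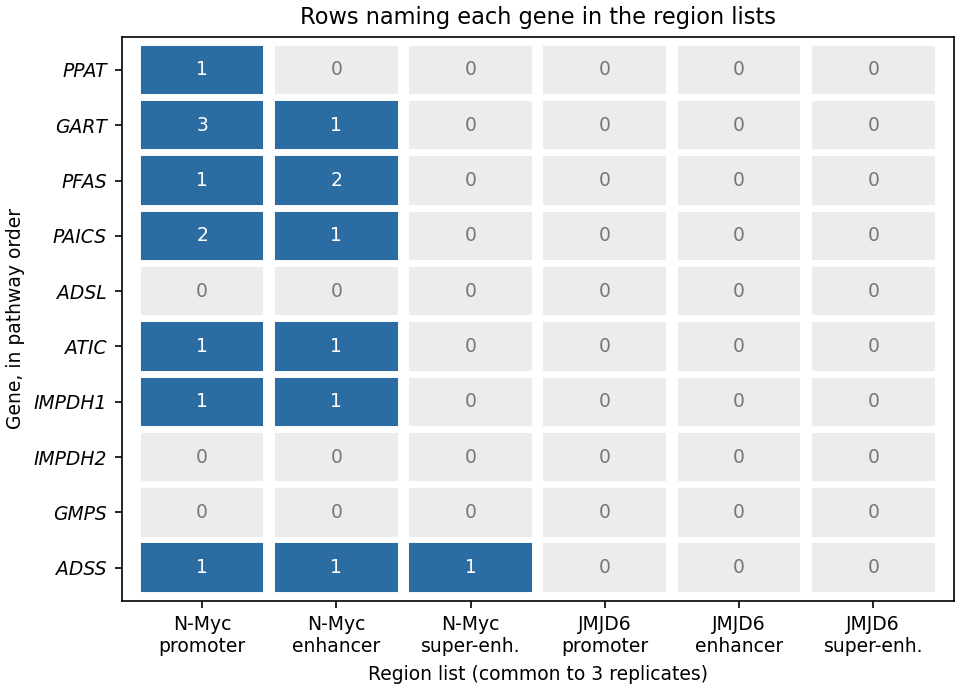
Number of rows that name each gene (vertical axis, in pathway order) in the 6 region lists (horizontal axis), with blue for at least 1 row and grey for 0. N-Myc promoter rows name 7 genes and typical enhancer rows 6 genes, the N-Myc super-enhancer list names ADSS alone, and the JMJD6 columns are 0 throughout.

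The E-boxes inside these promoter peaks are shown first, because they are the sequence feature that Myc proteins recognise and the rule for choosing genes did not use them. Each run is 30 bases of the reference, 5′ to 3′, with the 6 bases of the motif in capitals. An untranslated exon in a label means that the run touches one, and the motif itself need not lie in it. The first 4 lie at the shared promoter of PPAT and PAICS and are read on the plus strand, the direction of PAICS. The next ones, at PFAS and ATIC, are also on the plus strand.
PPAT untranslated exon, chr4:57301646-57301675: cgccgccgaaagCACGTGgaaggacctgcc
PAICS upstream start, chr4:57301946-57301975: ctgtatttgctgCACGTGgaaatctccgtt
PAICS intron, chr4:57302545-57302574: tgagctcgcggcCACGTGcgagccgcgaaa
PAICS intron, chr4:57302613-57302642: cgcgcgggcgcaCACGTGgcccaggcgctc
PFAS untranslated exon, chr17:8152643-8152672: gagtgcatcttcCACGTGagtatagttacc
ATIC upstream, chr2:216176223-216176252: ggttgcaggttgCACGTGacatagccgaga

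Promoter peaks at GART, IMPDH1 and ADSS held no CACGTG. They held a variant E-box each, shown in the direction of the gene, which is the minus strand for all 3. The variant CACGCG was searched on both strands, and so were the variants CATGTG (the same site as its reverse complement) and finally CACGAG.
GART intron, chr21:34914212-34914241: gtgggggttggcCATGTGcttttcacttgc
IMPDH1 intron, chr7:128045448-128045477: tcccagcctcacCACGAGggcagagggtcc
ADSS upstream, chr1:244615535-244615564: tccgacgctccaCACGCGcttccgcgcctc

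The promoter rows of the 7 genes touched 9 N-Myc peaks, and 5 of these held CACGTG (55.6%), with 6 sites in all. These peaks are not all separate, because the shared promoter of PPAT and PAICS has 3 of them, with 4 of the sites. Counted by region, 3 of the 6 separate promoter regions held CACGTG. The share over all 3550 N-Myc peaks at listed N-Myc promoters was 36.9%. With the variants counted as well, all 9 member peaks held an E-box, beside 77.2% of all promoter peaks. A variant is therefore common in any promoter peak, and its presence at GART, IMPDH1 and ADSS is a description of the letters only. Within 100 bp of the peak centre, 3 of the 9 peaks held CACGTG, beside 23% of all promoter peaks. The 6 sites lay a median of 84.25 bp from the peak centre (8.0 to 280.0 bp), and the 1583 sites of all promoter peaks a median of 81.0 bp. With 1 base on each side, 3 of the 6 sites read CCACGTGC on one strand or the other, which was also the commonest form among all 1583 sites (18.3%). All 3 lie at the shared promoter of PPAT and PAICS, and the sites of PFAS and ATIC had other forms.

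PPAT catalyses the first committed step, in which ribose phosphate receives its first nitrogen, and PAICS carries out a carboxylation and the addition of aspartate later in the pathway. Their listed start sites on chromosome 4 were 112 bp apart, PPAT on the minus strand (57301802) and the more upstream of the PAICS rows on the plus strand (57301914). N-Myc had 3 peaks across the pair. The first ran from 57301516 to 57301789, was 274 bp wide and covered the annotated start site of PPAT (57301781), reaching into its untranslated region and coding exon. The second, from 57301860 to 57302170 and 311 bp wide, covered upstream start sites of PAICS. The third, from 57302270 to 57303409, was 1140 bp wide, covered the main annotated start site of PAICS (57302426), and reached over exon and intron sequence.

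Of the 20-mers 67.8% were unique in the first peak, with 56.4% in the 120 bases around its CACGTG, 100% in the second and 68.2% in the third. Every 75-mer of the first and second peaks held a unique 20-mer, as did 88.2% of those of the third. Gaps of 70 bp and 99 bp separated these peaks, so that N-Myc occupied most of a block of 1894 bp. Among the 3525 protein-coding genes with a listed N-Myc promoter, 0.652% had 3 peaks in their promoter rows, 23 genes that include PPAT and PAICS, and 88.2% had 1. All 3 peaks held CACGTG, and the third held 2 sites whose starts were 68 bp apart. In promoter peaks as a whole, 6.59% held at least 2 sites. The 2 sites of the third peak are shown in 1 run with the bases between them, in the direction of PAICS.
PAICS intron, chr4:57302545-57302642: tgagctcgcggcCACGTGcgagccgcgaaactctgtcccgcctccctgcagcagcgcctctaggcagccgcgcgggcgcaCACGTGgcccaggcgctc

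PFAS, which converts the amide of the growing chain to an amidine, had 2 N-Myc peaks. The wider ran from 8152090 to 8152997 on chromosome 17 (908 bp, plus strand gene) and covered the listed start site (8152595). It held the CACGTG shown above, 62.5 bp downstream of that site, in a run of bases that touches an untranslated exon. The other, from 8151497 to 8151851 (355 bp), lay in an upstream intron and held a CATGTG. Of its 20-mers 21.7% occurred once in the genome, and 52.7% of its 75-mers, the length of the reads, held a unique 20-mer. The promoter of CTC1, a telomere maintenance gene on the opposite strand, overlapped both peaks and was listed as well.

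GART carries out several steps of ring assembly in 1 polypeptide. Its N-Myc peak ran from 34914084 to 34914411 on chromosome 21 (328 bp), 53 to 380 bp downstream of the listed start site (34914464), and it covered another annotated start site of the gene. The CATGTG shown above lies in an intron. The promoter of SON, an RNA-splicing cofactor gene on the opposite strand, overlapped the same peak and was also listed. No CACGTG lay within 1 kb of the main annotated start site of GART.

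ATIC, which closes the ring and yields IMP, had a peak from 216176026 to 216176392 on chromosome 2 (367 bp), at −652 to −286 bp from the listed start site (216176678). Much of that peak is repeated sequence. Of its 20-mers 18.1% occurred once in the genome, the median number of copies was 326, and 61.4% of its 75-mers held a unique 20-mer. In the 120 bases around its CACGTG 30.7% of the 20-mers were unique. Whether reads of other copies were placed there was not tested. Nearer to the start, 2 more CACGTG sites flanked the main annotated start of ATIC (216176782) at −43.5 and 31.5 bp, in unique sequence, and neither was inside a common N-Myc peak. They are printed to set beside the upstream site.
ATIC start, chr2:216176724-216176753: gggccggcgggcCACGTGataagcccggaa
ATIC untranslated exon, chr2:216176799-216176828: ctcctacctgcgCACGTGgtgccgccgctg

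The branch towards guanine nucleotides was listed in part. IMPDH1, which oxidises IMP, had a peak from 128045156 to 128045622 on chromosome 7 (467 bp), in an intron 402 to 868 bp downstream of a listed start site at 128046024. That is an internal start, and the main annotated start of the gene at 128050036 was in no N-Myc promoter row. IMPDH2, the paralogue that carries out the same reaction, had no row, and the nearest N-Myc peak was 109.4 kb from its start site. GMPS, which makes GMP, had no row either, with the nearest N-Myc peak 15.5 kb away. Neither IMPDH2 nor GMPS had a CACGTG within 1 kb of its start.

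On the adenine side, ADSS, which joins aspartate to IMP, had a peak from 244615409 to 244615733 on chromosome 1 (325 bp, minus strand gene) over its listed start site (244615436) but not over the annotated one (244615211). A second N-Myc peak of 496 bp, from 244613933 to 244614428, lay in an ADSS intron, ended just before the promoter row began at 244614436, and held 1 CACGTG. ADSL, which acts both in ring assembly and in this branch, had no row and its nearest N-Myc peak was 72.3 kb from the start site.

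ADSL differed from IMPDH2 and GMPS in sequence. It had 3 CACGTG sites within 1 kb of its start (40742504 on chromosome 22), at −670.5, 266.5 and 409.5 bp, none inside a common N-Myc peak. The first lies in repeated sequence, where 14.9% of 20-mers were unique, and the other 2 in sequence with 95% and 98% unique 20-mers. Of all protein-coding genes 29.2% had a CACGTG within 1 kb of the main start, 47% of those with a listed N-Myc promoter and 25.4% of the others. Among the 16611 genes without a listed N-Myc promoter the median distance to an N-Myc peak was 87.4 kb, so that ADSL and IMPDH2 lie near that value and GMPS lies closer than the 25th percentile, 29.8 kb. The 2 unique sites of ADSL are shown on the plus strand, the direction of the gene.
ADSL intron, chr22:40742756-40742785: ggcccgccccagCACGTGccgggctctgtt
ADSL intron, chr22:40742899-40742928: cacctgttgcctCACGTGttctcagtccga

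**Figure D2:**
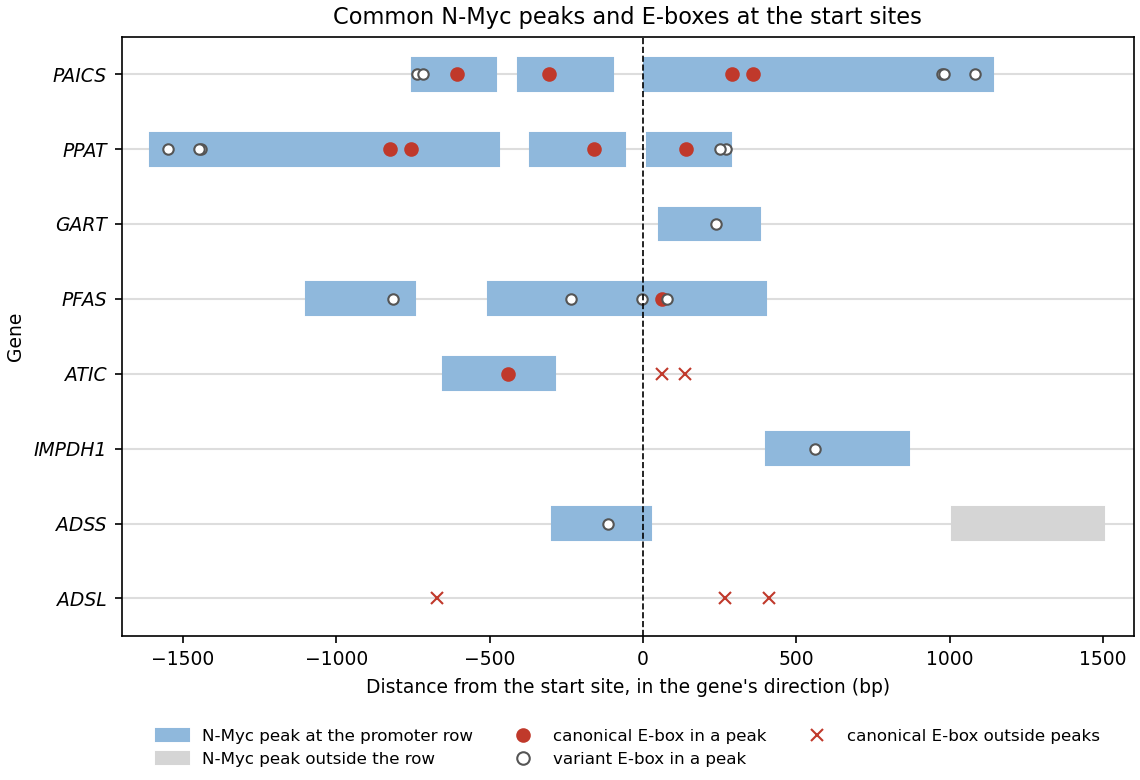
Common N-Myc peaks (blue; grey for the ADSS peak outside its promoter row, whose CACGTG is not drawn) along the distance from each gene's start site in bp, in the direction of the gene, with canonical E-boxes in peaks as filled red points, variant E-boxes as open points and canonical E-boxes outside peaks as crosses. The start site is the centre of the listed promoter row nearest to the annotated start, or the annotated start for ADSL; the 4 canonical E-boxes of PPAT and PAICS all lie in peaks, while the 3 of ADSL and 2 of the 3 of ATIC do not.

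Width is the only measure of size in the lists. The 9 member peaks were 274 to 1140 bp wide with a median of 355 bp, beside a median of 452 bp for all 3550 promoter peaks, and 6 of the 9 were narrower than that median. The third peak of PPAT and PAICS (percentile 97.9 among promoter peaks) and the start-site peak of PFAS (percentile 93.6) were wide, and the IMPDH1 peak stood near the middle (percentile 52.9). The peaks of ADSS (20.6), GART (21.5), ATIC (30.9) and the intronic one of PFAS (27.7) were in the lower part of the distribution. The first peak of PPAT and PAICS was the narrowest (percentile 8.90). The 3 peaks of that pair with their gaps spanned 1894 bp, at percentile 99.9 among the widths of single promoter peaks. Neighbouring peaks at other promoters were not joined for that comparison. With a peak at least as wide as the median of all N-Myc peaks required, 4 members kept a listed promoter (PPAT, PAICS, PFAS and IMPDH1), and the share of all protein-coding symbols fell to 10.4%.

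**Figure D3:**
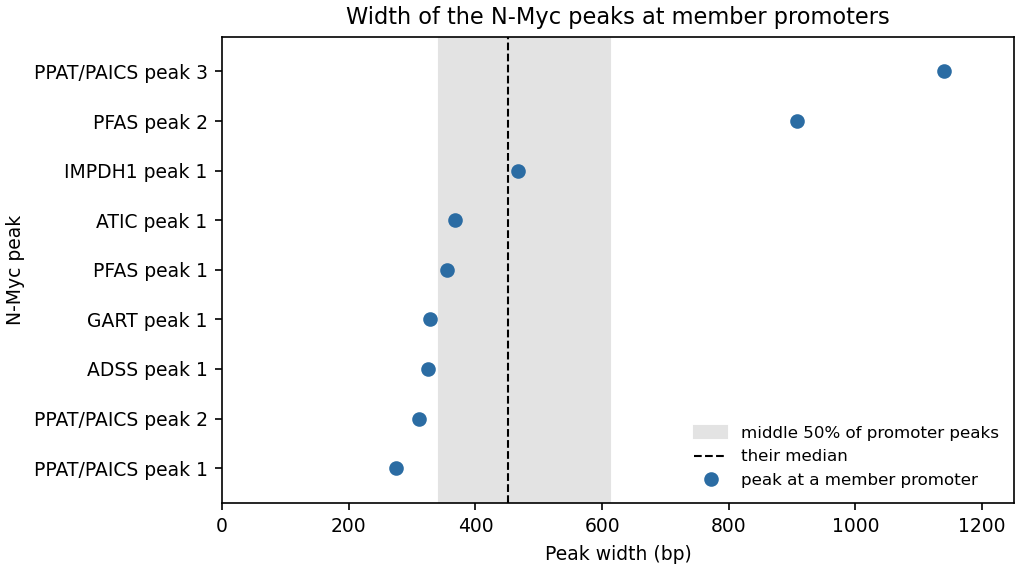
Width in bp (horizontal axis) of the 9 N-Myc peaks at member promoters (points, 1 per peak). The grey band is the middle 50% of all 3550 N-Myc peaks at promoters (343.0 to 612.0 bp) and the dashed line their median of 452 bp; 2 member peaks lie above the band and 4 below it.

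Typical enhancers bound by N-Myc named 6 members (GART, PFAS, PAICS, ATIC, IMPDH1 and ADSS), in 7 rows. Over all protein-coding symbols 31.8% were named by such a row. These regions come from H3K27ac, a mark of active promoters and enhancers, and each is assigned to its 2 nearest genes, so that a named gene need not be its target. The methods of the study state that the H3K27ac ChIP-Seq was done once and that H3K27ac peaks within 1 kb of start sites were removed before enhancers were stitched together. The deposited regions were nevertheless not free of start-site sequence. For all 6 genes 1 of the regions held the promoter peaks already described. At GART, PFAS, PAICS, ATIC and ADSS that region covered a listed start site, and at IMPDH1 it lay mostly inside the promoter row. The reason was not tested. PPAT was not named, and the region over it (57300176 to 57310485) was assigned to PAICS and SRP72. Counted by position, all 7 bound promoters lay over an N-Myc-bound enhancer, beside 81% of all bound protein-coding genes.

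The enhancer regions differed in length. That at ATIC was 15.25 kb long (percentile 92.4 among N-Myc-bound typical enhancers), that at PAICS 10.31 kb (83.2) and that at GART 5.53 kb (72.6). Those at PFAS (3.08 kb) and ADSS (2.34 kb) were near the median of 2.55 kb, and the one at IMPDH1 was short, at 0.65 kb (7.82). PFAS was also named by a region of 20.35 kb, from 8172637 to 8192983, shared with RANGRF. The peak of N-Myc in it, from 8173688 to 8174020, reached an untranslated exon at the 3′ end of PFAS, 21.1 kb from the start site, and held no CACGTG. The other genes named beside a member were CTC1, DONSON, ABCA12, PRRT4 and ZBTB18.

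Super-enhancers bound by N-Myc named 1 member, ADSS, beside 1.31% of all protein-coding symbols. That region, from 244210491 to 244221179 on chromosome 1, lies 399.6 kb from ADSS by the listed distance and 1.2 kb from ZBTB18, a transcriptional repressor gene, and its N-Myc peaks lie in ZBTB18 exons. With a listed distance of at most 50 kb required, or a region over the gene or 10 kb around it, no member had a super-enhancer.

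JMJD6 was absent from the members in every list. No JMJD6-bound typical enhancer or super-enhancer named a member, and the share over all protein-coding symbols was 0.973%. None of the 9 member promoter peaks overlapped a JMJD6 peak. The nearest JMJD6 peak was 75.5 kb from the PFAS start site, in the untranslated region of TMEM107 (8076293 to 8077061), where it overlapped an N-Myc peak. For ADSS it was 124.2 kb away, in an intron of CATSPERE. For the other 8 genes the distance was between 1101.4 kb (ADSL) and 12150.5 kb (IMPDH2, a peak in a TRANK1 intron). With 561 common JMJD6 peaks in the genome, a JMJD6 rate below that of other genes was not detectable among 10 genes.

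**Figure D4:**
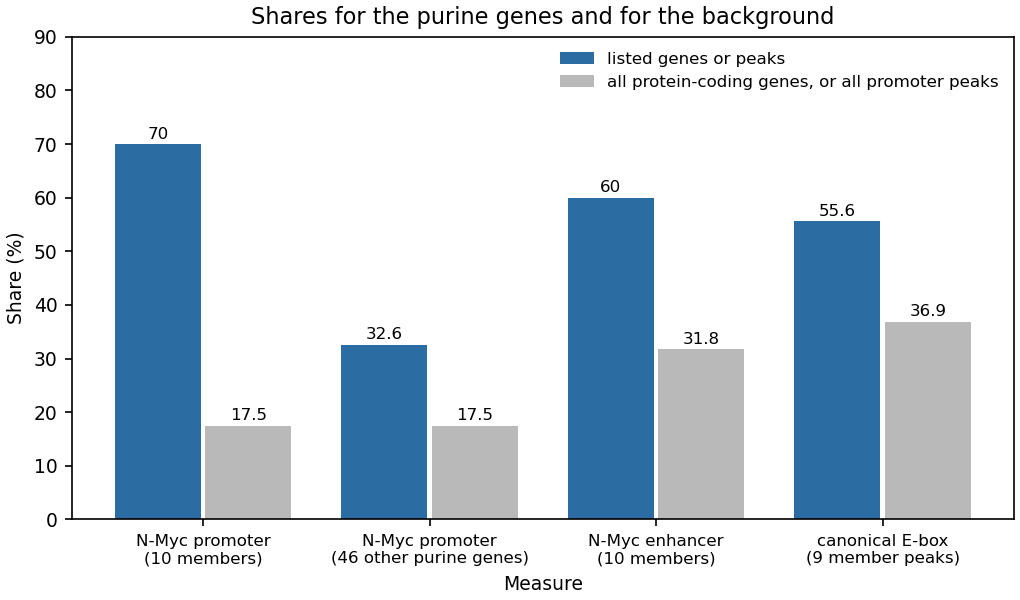
Share in percent (vertical axis, from 0) for the purine genes or their peaks (blue) and for the background (grey) in 4 measures. The 9 member peaks lie in 6 separate promoter regions, of which 3 held CACGTG. The promoter and enhancer measures are not separate, because each member named by an enhancer had a region that held its promoter peaks. The blue bar is the higher in each, with no test made: 70.0% against 17.5% for an N-Myc promoter, 60.0% against 31.8% for an N-Myc typical enhancer, and 55.6% of 9 peaks against 36.9% of all promoter peaks for the canonical E-box; the 46 other genes of purine metabolism stand at 32.6% against 17.5%.

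The rest of purine metabolism was looked up in the same way, as 46 genes in 6 roles. N-Myc promoters were listed for 15 of them (32.6%), against 7 of the 10 de novo genes and 17.5% of all protein-coding symbols. The counts by role below are small, and those of 1 gene in 6 or 7 are close to that 17.5%. None of the 46 genes had a row in a JMJD6 list. The paper describes this cell line as carrying a gain in chromosome 17q. Among the listed genes, NME1, NME2, NT5C and PRPSAP1 have their nearest N-Myc peaks on that arm, between 49230475 and 74350505. Whether copy number bears on their listing was not tested. In the supply of phosphoribosyl pyrophosphate, the ribose donor used by PPAT, the regulatory proteins PRPSAP1 (peak of 476 bp) and PRPSAP2 (370 bp) were listed, and the synthetases PRPS1 and PRPS2 were not. Among salvage genes 1 of 6 was listed, the adenosine kinase gene ADK, with 2 promoter peaks of up to 599 bp and 1 CACGTG. HPRT1, APRT, MTAP, PNP and ADA were not.

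PRPS1, PRPS2 and HPRT1 lie on chromosome X, where the N-Myc promoter list held 0 rows although 120 common peaks lie there. With no row on that chromosome they could not be counted as listed, yet they stay in the counts by role and among the 46 genes. Genes of chromosome X also stay among all protein-coding symbols. The nearest N-Myc peaks to any annotated start of these 3 genes were 26.7 kb, 935.2 kb and 184.7 kb away. In the interconversion of IMP, AMP and GMP 1 of 6 genes was listed, the AMP deaminase gene AMPD2 (698 bp, 2 CACGTG sites). ADSSL1, the muscle form of ADSS, had its nearest N-Myc peak at 69.2 kb.

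Nucleotide kinases, which raise monophosphates and diphosphates to triphosphates, had 6 of 13 listed. The widest of their peaks was at NME1, a nucleoside diphosphate kinase gene (1153 bp, 2 CACGTG sites), followed by NME3 (578 bp, none). NME2, NME6 and NME7 had peaks of 344, 373 and 332 bp without CACGTG. In breakdown 1 of 7 was listed, the nucleotidase gene NT5C (708 bp, 1 site).

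Formyl folate donates carbon atoms to the ring at the steps of GART and ATIC. Of the 10 genes looked up for its supply, 4 were listed. The 10 include the dehydrogenase genes ALDH1L1 and ALDH1L2, whose enzymes use up formyl folate. MTHFD1, the cytosolic formyl folate synthase, had a peak of 1305 bp with 1 CACGTG. SHMT2, the mitochondrial serine hydroxymethyltransferase, had a peak of 631 bp with 2 sites, and ALDH1L2, a mitochondrial formyl folate dehydrogenase, one of 590 bp with none. MTHFD2L was listed although no common N-Myc peak overlapped its rows. MTHFD2, SHMT1, MTHFD1L, ALDH1L1 and MTHFS were among those not listed.

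**Figure D5:**
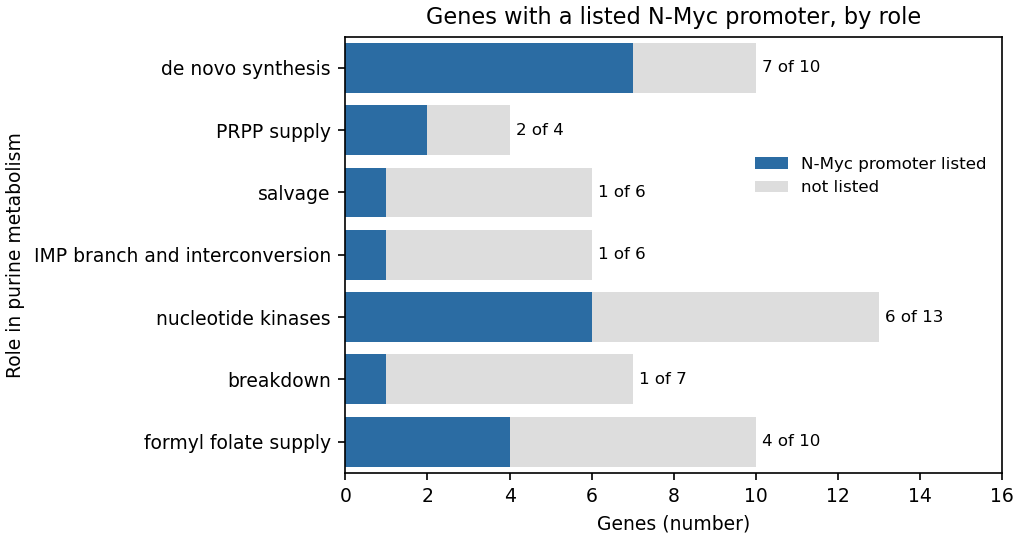
Number of genes (horizontal axis) in each role of purine metabolism (vertical axis) with a listed N-Myc promoter (blue) and without (grey). De novo synthesis has 7 of 10, nucleotide kinases 6 of 13, formyl folate supply 4 of 10 and PRPP supply 2 of 4. Salvage, interconversion and breakdown have 1 each, and the share over all protein-coding symbols is 17.5%. The formyl folate list includes dehydrogenases that use up formyl folate. PRPP supply and salvage include genes on chromosome X, where the promoter list held 0 rows. PRPP supply, nucleotide kinases and breakdown include listed genes on chromosome 17q, where the paper describes a gain in this cell line.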

How the data were processed

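ChIP-Seq samples of CHP-134 cells were grouped by the antibody in their labels, 3 for N-Myc and 3 for JMJD6. As its methods and the submitters' processing notes state, the authors aligned reads with BWA to hg19, used SAMtools and bedtools, and called peaks against input with MACS2 2.1.1.20160309 at a q-value maximum of 0.05. The deposited lists hold positions in bp of the peaks that the 3 replicates of a protein had in common, and of regions touching them, with gene symbols and distances. Enhancers came from ROSE, stitched within 12.5 kb, and their nearest genes from GREAT.

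The build was checked on GENCODE version 44 lifted to GRCh37: of 4905 N-Myc promoter rows with a known symbol, 87.7% were centred within 100 bp of a start site of that gene. Of 4150 symbols, 3951 matched, older symbols through the RefSeq gene table (GRCh38.p14). Overlap meant at least 1 bp. Sequence was read from GRCh37 on both strands, and unique 20-mers were counted over its chromosomes. The background was every protein-coding symbol of the annotation. No test was run, because the lists hold no value per sample. The searches were tested on simulated data. Python 3.11.15 and pysam 0.24.0 were used. The members and gene lists were chosen with earlier results of these data known. All 10 members were named whatever their values, with genes that share their peaks or regions, genes at the nearest JMJD6 peaks, and listed genes of the purine lists. Some genes that this rule names are not reported here.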

Additional observations from a re-analysis of the deposited data

How the results depend on the processing

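Of 26 alternative settings, 20 left the value within 1.5 times of that reported and 6 moved it. Some of the 20 stood at that limit, under the rule of a peak at least as wide as the median. Members named by a typical enhancer fell from 6 to 4, without ATIC and GART, beside 22.6% of all protein-coding symbols. Other purine genes with a listed promoter fell from 15 to 10, beside 10.4%. The 20 include settings that cannot move the value, namely stricter rules on a JMJD6 count of 0, and a background of gene symbols of any type, which left the 15 other purine genes as they were and changed the background from 17.5% to 6.34%. Requiring a common peak over an annotated start site left 4 members with an N-Myc promoter (GART, PAICS, PFAS and PPAT), beside 13.3% of all protein-coding symbols, and requiring a peak at least as wide as the median peak also left 4. Both settings use fewer peaks by construction. The 1 member with an N-Myc-bound super-enhancer became 0 under a distance of at most 50 kb and 0 with a region over the gene or 10 kb around it. Of the 9 member peaks, 5 held CACGTG, 3 within 100 bp of the centre and 9 with the variants. The JMJD6 counts were also 0 under the settings that could have raised them, a common peak within 1 kb of any annotated start and a region over the gene or 10 kb around it. No paired analysis was possible because the lists give only peaks common to the replicates and carry no value per sample, and for the same reason replicates were not left out in turn. Peak width stood in for a stricter threshold.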

Other observations

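Annotated start sites and the promoter list did not always name the same genes. A common N-Myc peak lay within 1 kb of an annotated start of PNP, the purine nucleoside phosphorylase of salvage, where it covered a start site (20929678 to 20930152 on chromosome 14), and 306 bp from a start of GUK1, the guanylate kinase, yet neither was in the promoter list. Counted by such peaks, 16 of the 46 other purine genes were bound, in place of the 15 listed, with PNP and GUK1 added and MTHFD2L lost. The share of all protein-coding symbols rose too, from 17.5% to 20.8%. Both PNP and GUK1 were named by an N-Myc-bound typical enhancer, as were 22 of the 46 genes (47.8%) and 31.8% of all protein-coding symbols. AMPD3 had a peak 1.8 kb from its nearest annotated start and GMPR2 one at 4.0 kb, outside the promoter window.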
